A study of Mus musculus with 125 samples.

Results

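The DNA replication machinery was followed through 40 genes, chosen by name for their textbook roles out of the 43421 genes in the count table. Earlier results of these data were known when they were chosen. They were kept as 3 classes: origin licensing with 9 genes (Orc1 to Orc6, Cdc6, Cdt1 and Gmnn), the replicative helicase with 12 (Mcm2 to Mcm7, Mcm10, Cdc45 and Gins1 to Gins4) and fork factors with 19 (Pcna, Rfc1 to Rfc5, Prim1, Prim2, Pola2, Pold1 to Pold3, Pole, Pole2, Lig1, Fen1 and Rpa1 to Rpa3). Each was matched to 1 Ensembl gene of the table, and all 40 passed the filter on low counts. RNA had been sequenced from single mouse embryos at the 2-cell stage. Zygotes from crosses between C57BL/6 and JF1/Ms, both inbred, were picked 10 h after fertilization, their second polar body was taken off with a micromanipulator, and the embryos were taken at 34 h. Zygotes were scored for 1 pronucleus (1PN) or for 2 separate pronuclei (2PN). For some 1PN embryos the labels state that they were judged in silico to be parthenogenetic, that is, to lack a paternal genome. These are called uniparental 1PN embryos below, and plain 1PN is kept for the others.

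The groups held 4 uniparental 1PN embryos of the JF1/Ms x C57BL/6 cross and 8 of the C57BL/6 x JF1/Ms cross, 31 parthenotes of the strain C57BL/6, 3 and 11 1PN embryos of these 2 crosses, and 21 and 43 2PN embryos. In the labels the maternal strain of each cross and the activation of the parthenotes are not given. Nor is common parentage of embryos, and the p-values therefore describe spread among the embryos at hand. Parthenotes differ from 2PN hybrids both in having no paternal genome and in carrying no JF1/Ms genome, and these cannot be told apart. A uniparental 1PN embryo, lacking the paternal genome, also lacks the strain of the father. Against 2PN and 1PN hybrids of its cross these cannot be told apart either. Levels are given as the count of a gene scaled to 1e+06 gene counts of its embryo (CPM), and since gene lengths enter them they are compared between embryos only, not between genes. A whole 2-cell embryo was lysed, so a lower level may mean less of a transcript or more of all others.

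A cell loads its replication origins before S phase. The origin recognition complex (Orc1 to Orc6) binds DNA and, with Cdc6 and Cdt1, places the ring of Mcm2 to Mcm7 around it, while geminin (Gmnn) binds Cdt1 and blocks a further round of loading. At the start of S phase Cdc45 and the 4 GINS subunits (Gins1 to Gins4) join the ring and make it an active helicase, a step in which Mcm10 takes part. At the fork the primase subunits (Prim1 and Prim2) and DNA polymerase alpha lay down primers, replication factor C (Rfc1 to Rfc5) loads the sliding clamp (Pcna), polymerases delta and epsilon extend the strands, Fen1 and Lig1 process and join the fragments of the lagging strand, and replication protein A (Rpa1 to Rpa3) covers single-stranded DNA. In the mouse egg most of these proteins and messages are laid down before fertilization. The first transcription of the embryo's own genome takes place from the late zygote to the 2-cell stage, while inherited messages are cleared.

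Depth ran from 533116 to 4887190 gene counts (median 3392243) over the 121 embryos compared, and 2PN embryos of JF1/Ms x C57BL/6 were shallower (median 2521857) than those of C57BL/6 x JF1/Ms (median 3867552). Of 20 oocyte-derived transcripts used as a marker list, 18 or 19 had a median of at least 10 CPM in each group. Of 17 transcripts typical of the 2-cell stage, 14 to 17 did. Markers of cumulus cells were at a median of 0 for 8 to 11 of 12 genes, those of sperm for 7 to 9 of 11 and those of blood for 1 to 4 of 6, in every group. A few uniparental 1PN embryos stood apart. The summed oocyte-derived list reached 30430 CPM in embryo 1 and 26090 CPM in embryo 2 of JF1/Ms x C57BL/6, against 5461 and 6469 CPM in embryos 3 and 7, and 28910 CPM in embryo 10 of C57BL/6 x JF1/Ms, against 5278 to 15840 CPM in the other 7. In 2PN embryos the list had a median of 2089 CPM in JF1/Ms x C57BL/6 and of 3337 CPM in C57BL/6 x JF1/Ms. The 2-cell transcripts summed to 132, 375 and 2053 CPM in embryos 1, 2 and 10, below each of the 2PN embryos (2660 to 13100 CPM). Embryo 19 of C57BL/6 x JF1/Ms, at 2644 CPM, lay below them too. Embryos 7, 18 and 22, at 3536, 3570 and 3153 CPM, lay below the 2PN embryos of that cross (at least 3970 CPM), and embryos 4, 11 and 14 did not. In the oocyte-derived list embryos 7 and 19, at 13570 and 15840 CPM, were above each of these 2PN embryos (at most 9530 CPM). Embryo 10 was thus the far end of a spread within its group. Counts of members called in uniparental 1PN embryos are therefore given with embryos 1, 2 and 10 and without them, called below the 3 embryos that stood apart. Those of other genes are given with them only, and the part of the inherited transcripts in the results was not tested. Gene by gene, 13 of the 20 oocyte-derived transcripts were higher and 0 lower in uniparental 1PN than in 2PN embryos, and 0 of the 17 2-cell transcripts were higher and 7 lower (18.3% and 15.8% of all genes). Some counts are also given without 5 2PN embryos of JF1/Ms x C57BL/6, which are described with the reciprocal crosses.

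To show the genes themselves, the 170 bases before the start of 6 members, as a promoter table from RefSeq lists it, are printed in lower case, in the build GRCm38.p6 and on the strand of the gene. For Cdc6 and Mcm7 the listed start lies inside the span annotated for the gene, so their stretches overlap that span. Cdc6, Mcm6, Mcm7 and Gins3 are shown because they were lower in uniparental 1PN embryos and hold an E2F-type motif, the letters bound by E2F factors that drive genes of S phase. Rpa2 is shown as the member with the most negative change in the same comparison, and Orc5 as the member with the most positive one. Capitals mark TTTCCCGC or TTTGGCGC or their reverse complement, and neither word occurs in the 2 stretches without capitals. The stretches lie at chr11:98907981-98908150 (plus strand) for Cdc6, chr1:128359706-128359875 (minus strand) for Mcm6, chr5:138171884-138172053 (minus strand) for Mcm7, chr8:95633389-95633558 (plus strand) for Gins3, chr4:132768190-132768359 (plus strand) for Rpa2 and chr5:22550339-22550508 (minus strand) for Orc5.
Cdc6: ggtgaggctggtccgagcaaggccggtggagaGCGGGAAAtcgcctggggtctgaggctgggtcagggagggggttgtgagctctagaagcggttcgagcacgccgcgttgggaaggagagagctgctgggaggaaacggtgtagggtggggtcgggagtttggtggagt
Mcm6: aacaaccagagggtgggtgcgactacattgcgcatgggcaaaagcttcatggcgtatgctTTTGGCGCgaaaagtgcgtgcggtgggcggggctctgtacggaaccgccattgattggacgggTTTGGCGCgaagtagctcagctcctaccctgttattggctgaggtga
Mcm7: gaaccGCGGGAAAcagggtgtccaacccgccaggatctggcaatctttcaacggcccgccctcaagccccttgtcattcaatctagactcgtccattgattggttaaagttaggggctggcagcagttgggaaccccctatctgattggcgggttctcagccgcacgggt
Gins3: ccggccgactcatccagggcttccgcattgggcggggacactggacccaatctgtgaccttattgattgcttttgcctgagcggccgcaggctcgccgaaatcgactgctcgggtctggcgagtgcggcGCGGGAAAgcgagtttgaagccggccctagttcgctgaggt
Rpa2: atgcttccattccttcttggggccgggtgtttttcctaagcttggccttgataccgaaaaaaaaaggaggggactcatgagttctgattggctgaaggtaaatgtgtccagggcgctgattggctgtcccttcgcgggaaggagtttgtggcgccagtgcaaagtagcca
Orc5: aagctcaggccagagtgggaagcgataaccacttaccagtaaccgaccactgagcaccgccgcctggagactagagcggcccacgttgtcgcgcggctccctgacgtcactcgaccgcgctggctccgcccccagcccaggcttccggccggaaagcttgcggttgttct

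Of the 40 members 32 were found in this promoter table. In the 250 bases before the start, either word was present on either strand in 6 of the 32 (18.8%), against 407 of 27025 genes (1.51%). These 6 were Orc3 and Cdc6 of licensing and Mcm5, Mcm6, Mcm7 and Gins3 of the helicase, and none of the 16 fork factors found there held one. Of these, Orc3 and Mcm5 were not called in uniparental 1PN embryos against 2PN embryos. The printed genes were picked by call and motif together, and a relation between motif and call was not tested. Mcm6 held the word TTTGGCGC at 2 places, 40 to 47 and 103 to 110 bases before the start. CCAAT, the word bound by NF-Y, was found in 20 of the 32 (62.5%), against 37.5% of all genes, and in 8 of 8 helicase genes. These are matches of letters and no binding was measured.

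Uniparental 1PN embryos held less RNA of 6 of 12 helicase genes and of the loading factor Cdc6 than 2PN embryos, and more Orc5. Over both crosses 4 of the 40 members were higher and 11 lower (edgeR quasi-likelihood test over 22785 genes, Benjamini-Hochberg adjusted p under 0.05, cross as a term), while 18.3% of all genes tested were higher and 15.8% lower. The median log2 fold change was -0.27 over the 40 members and 0.19 over all genes. Without the 3 embryos that stood apart 2 members were higher and 9 lower, where 9.13% and 9.95% of all genes were. Scaled by DESeq2 size factors instead of TMM factors, 6 were higher and 11 lower, where 23.5% and 13.5% of all genes were; that scaling moved the median of all genes by 0.165.

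In licensing, 1 gene was higher and 3 were lower. Cdc6 brings the Mcm ring to the origin. It had 0, 1.70, 79.6 and 9.98 CPM in uniparental embryos 1, 2, 3 and 7 of JF1/Ms x C57BL/6, against 1.88 to 246.5 CPM (median 97.6) in 2PN embryos. In C57BL/6 x JF1/Ms it had 13.9 to 97.6 CPM (median 22.4) in the 8 uniparental embryos, against 41.4 to 180.5 CPM (median 79.8) in 2PN embryos. Only 1 of 12 uniparental embryos was above the 2PN median of its cross, though the ranges overlapped, and the log2 fold change was -1.74 ± 0.35 (SE, adjusted p = 6.3e-05). Geminin was below that median in 12 of 12, at 72.7, 34.9, 148 and 19.95 CPM in JF1/Ms x C57BL/6, against 14.3 to 1132 CPM (median 619.9) in 2PN embryos, and at 205.6 to 1037 CPM (median 770.4) in C57BL/6 x JF1/Ms, against 270.9 to 2026 CPM (median 1093). Its log2 fold change was -1.19 ± 0.31 (adjusted p = 0.0019). Cdt1, the partner that geminin holds back, was lower by less, at -0.93 ± 0.34 (adjusted p = 0.024, 8 of 12 below the median), and it did not pass without embryo 1 (-0.79), embryo 2 (-0.81) or embryo 7 (-0.80) of JF1/Ms x C57BL/6. Orc5, a subunit of the recognition complex, went the other way. It had 498, 662, 82.9 and 160.6 CPM in uniparental embryos of JF1/Ms x C57BL/6, against 2.08 to 288 CPM (median 41.3), and 88.0 to 296 CPM (median 165.6) in those of C57BL/6 x JF1/Ms, against 16.4 to 345 CPM (median 58.2). All 12 lay above the 2PN median, with a log2 fold change of 1.65 ± 0.29 (adjusted p = 8e-06). The 2 highest were embryos 1 and 2, and without the 3 embryos that stood apart it was 0.92. The other Orc genes did not pass, with Orc1 at -0.27, Orc2 at -0.18, Orc3 at 0.42, Orc4 at -0.43 and Orc6 at -0.28.

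In the helicase class 0 of 12 genes were higher and 6 lower, with a median log2 fold change of -0.76. Cdc45, which switches the Mcm ring on, had 0, 14.8, 34.6 and 51.9 CPM in uniparental embryos 1, 2, 3 and 7 of JF1/Ms x C57BL/6, against 46.3 to 606 CPM (median 379.9) in 2PN embryos. It had 53.4 to 644 CPM (median 358) in uniparental embryos of C57BL/6 x JF1/Ms, against 177 to 1012 CPM (median 588) in 2PN embryos. The change was -1.42 ± 0.35 (SE, adjusted p = 0.00098), with 11 of 12 below the median. Of the GINS subunits, which join Cdc45 on the ring, 3 of 4 were lower. Gins4 stood at -0.81 ± 0.22 (adjusted p = 0.0034), Gins1 at -1.30 ± 0.43 (adjusted p = 0.015) and Gins3 at -1.55 ± 0.56 (adjusted p = 0.024). Gins1 was not counted in embryos 1 and 2 of JF1/Ms x C57BL/6, and Gins3 was not counted in embryo 1 of that cross and embryo 10 of the other. Neither passed without the 3 embryos. Of the ring itself only Mcm6 (-0.80 ± 0.25, adjusted p = 0.008) and Mcm7 (-0.95 ± 0.24, adjusted p = 0.0014) were lower. Mcm2, Mcm3, Mcm4 and Mcm5 stood at 0.23, -0.72, 0.75 and -0.26, Mcm10 at 0.36 and Gins2 at -0.40, and none of these 6 passed. The values of the 6 ring subunits lay on both sides of 0, and a difference between them was not tested.

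Among the fork factors 3 were higher and 2 lower, and 14 of 19 did not pass. Rpa2, the middle subunit of replication protein A, had the most negative change of all members at -2.36 ± 0.48 (SE, adjusted p = 7.7e-05). It had 0, 0.568, 147 and 13.97 CPM in uniparental embryos 1, 2, 3 and 7 of JF1/Ms x C57BL/6, against 0 to 1097 CPM (median 360.1) in 2PN embryos. In C57BL/6 x JF1/Ms it had 22.2 to 180.0 CPM (median 71.0) in uniparental embryos, against 75.7 to 744 CPM (median 340.0) in 2PN embryos, and 12 of 12 uniparental embryos lay below the median of their cross. In the fit over both crosses the other subunits of the same complex were not lower. Rpa1, the large subunit, was higher at 0.76 ± 0.30 (adjusted p = 0.041), and Rpa3, the small one, stood at 0.67 ± 0.34 without passing (adjusted p = 0.12). Rpa3 was called lower within JF1/Ms x C57BL/6 and higher within C57BL/6 x JF1/Ms, so its pooled value joins opposite changes. Its change in JF1/Ms x C57BL/6 minus that in C57BL/6 x JF1/Ms was -3.46. Prim1, the catalytic subunit of primase, was lower at -1.35 ± 0.30 (adjusted p = 0.00025). It had 11.9, 1.99, 14.4 and 9.98 CPM in the 4 uniparental embryos of JF1/Ms x C57BL/6, against 3.44 to 203 CPM (median 78.1). Its partner Prim2 stood at -0.57 and did not pass. Rfc5, of the clamp loader, was higher at 0.67 ± 0.24 (adjusted p = 0.024, 11 of 12 above the median), as was DNA ligase 1 (Lig1) at 1.20 ± 0.47 (adjusted p = 0.038, 10 of 12). Rfc5, Lig1 and Rpa1 did not pass without the 3 embryos, and Rpa3 did, at 0.93. A single embryo of JF1/Ms x C57BL/6 was enough for that: embryo 1 for Lig1 (1.00 without it) and embryo 2 for Rfc5 (0.59) and Rpa1 (0.64). The fork factors that did not pass lay between -1.03 (Rfc4) and 0.67 (Rpa3), with the flap endonuclease Fen1 at -0.84 and the clamp Pcna at -0.04. A pseudogene, Pcna-ps2, is counted beside Pcna, so reads of the clamp may be split between them. Pold1, the catalytic subunit of polymerase delta, was near the limit of counting, with a median of 0 CPM in uniparental embryos of JF1/Ms x C57BL/6, in parthenotes and in 2PN embryos of both crosses.

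**Figure D1:**
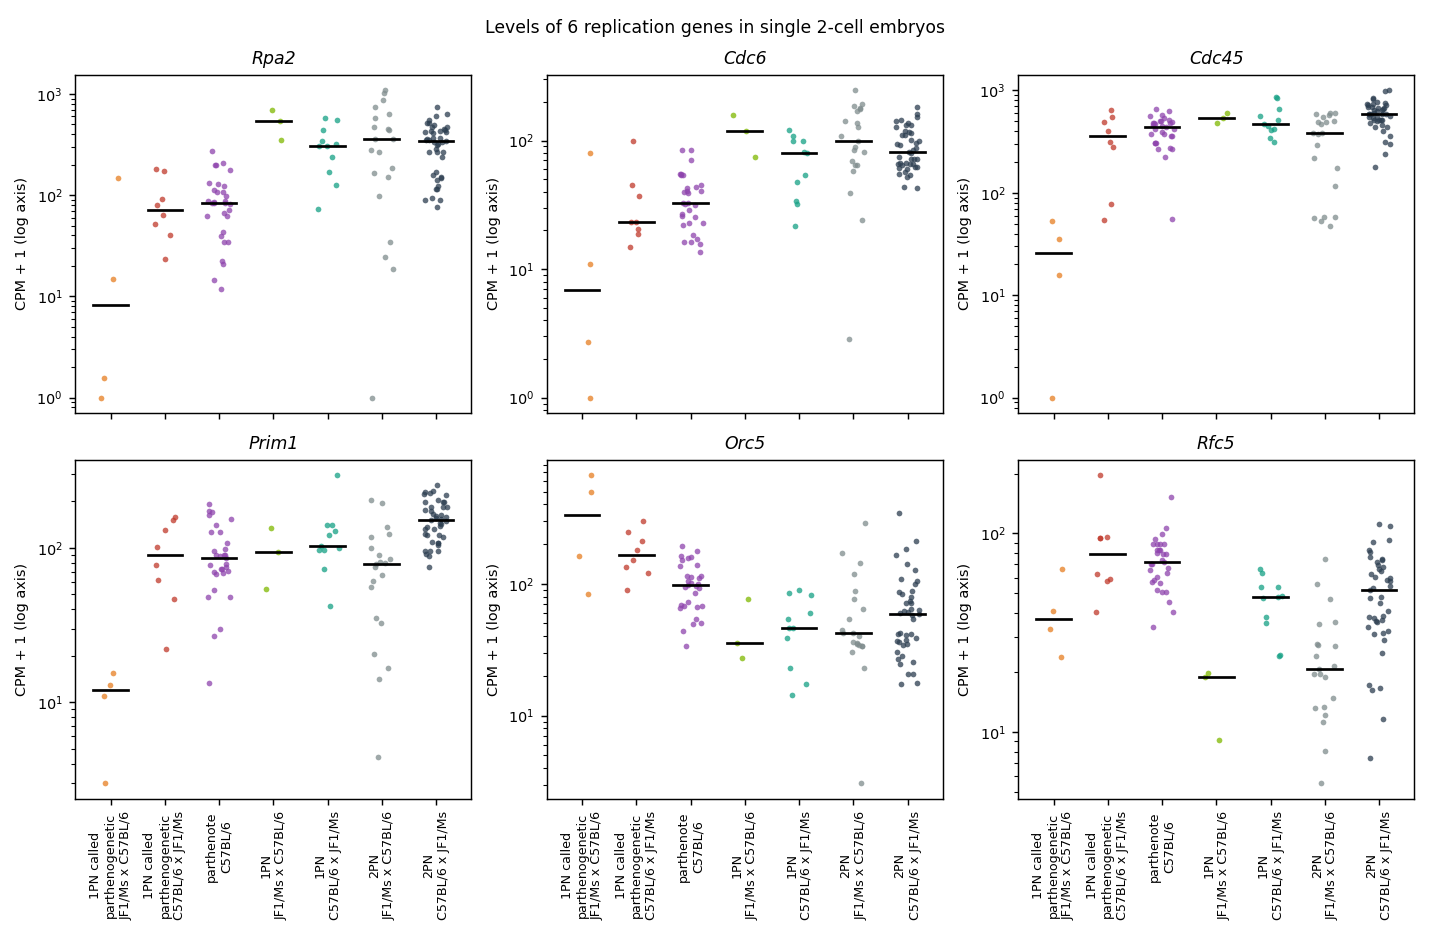
Each point is 1 embryo and each bar the median of its group; the vertical axes give CPM + 1 on a log scale for 6 genes, and the 7 groups run from uniparental 1PN embryos (written as 1PN called parthenogenetic) at the left to 2PN embryos at the right. Rpa2, Cdc6, Cdc45 and Prim1 are lower and Orc5 is higher in uniparental 1PN embryos than in 2PN embryos of the same cross, with overlapping ranges.

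The crosses differed in how far the replication genes moved. Within JF1/Ms x C57BL/6, 1 member was higher and 17 were lower in uniparental 1PN embryos (11% and 20.7% of 24380 genes), with a median of -1.69 against -0.52 over all genes. Within C57BL/6 x JF1/Ms, 4 were higher and 5 lower (12.1% and 10.2%), with a median of -0.28 against 0.19. In JF1/Ms x C57BL/6 Orc5 was higher at 2.28, and Cdc45 (-3.96), Rpa2 (-3.48), Rfc2 (-3.31), Prim1 (-3.27), Cdt1 (-3.25), Gmnn (-3.18), Gins1 (-3.01), Gins3 (-2.98), Fen1 (-2.55), Cdc6 (-2.46), Mcm7 (-2.40), Orc1 (-2.36), Rpa3 (-2.30), Prim2 (-2.09), Pole2 (-1.98), Mcm6 (-1.73) and Gins2 (-1.71) were lower. In C57BL/6 x JF1/Ms Lig1 (1.44), Rpa3 (1.16), Orc5 (1.15) and Mcm4 (1.00) were higher, and Rpa2 (-2.09), Cdc6 (-1.56), Gins4 (-1.02), Cdc45 (-0.95) and Prim1 (-0.95) were lower. Without embryo 10 and the 2 of the other cross C57BL/6 x JF1/Ms had 4 higher and 4 lower (9.62% and 7.38% of all genes): Mcm4 (0.92), Cdc45 (-0.78) and Prim1 (-0.79) no longer passed, while Pole2 (0.91) and Orc2 (-0.59) did. Under size factors the counts were 3 and 16 in JF1/Ms x C57BL/6 (14.5% and 17.1% of all genes) and 7 and 5 in C57BL/6 x JF1/Ms (18.9% and 8.24%). Tested directly, the change was more negative in JF1/Ms x C57BL/6 for 11 members and more positive for 0 (13% and 3.64% of all genes, 16.6% in all). Rpa3 had the widest gap, at -3.46 ± 0.73 (SE, adjusted p = 0.00022). It had 1.59, 2.27, 18.3 and 5.99 CPM in uniparental embryos of JF1/Ms x C57BL/6, against 0 to 61.0 CPM (median 28.8) in 2PN embryos, whereas in C57BL/6 x JF1/Ms it was higher, at 45.1 to 118 CPM (median 68.4), against 4.75 to 66.0 CPM (median 24.01). Cdc45 differed by -3.01 ± 0.64 (adjusted p = 0.00028) and Orc1, the largest recognition subunit, by -2.56 ± 0.54 (adjusted p = 0.00029). The others were Rfc2 (-3.14), Cdt1 (-2.78), Pole2 (-2.75), Gmnn (-2.41), Prim1 (-2.32), Fen1 (-2.09), Mcm7 (-1.79) and Gins2 (-1.61). Orc1 had 0.265 and 6.82 CPM in embryos 1 and 2 but 108 and 75.8 CPM in embryos 3 and 7, against 79.6 to 354 CPM (median 217) in 2PN embryos of that cross. Only 4 embryos stand behind the JF1/Ms x C57BL/6 values, of 1002294 to 3768364 counts. Without the 3 embryos that stood apart the cross had 0 members higher and 8 lower (2.98% and 6.7% of all genes). The difference between crosses then held for 3 members (Gmnn, Cdc45 and Pole2, with 3.33% of all genes lower). Only embryos 3 and 7 of the cross remain there, its shallowest uniparental embryos, at 1531882 and 1002294 counts. The part of the smaller number of embryos in the lost calls was not tested. Within JF1/Ms x C57BL/6 single embryos decided Gins3, which did not pass without embryo 1 (-2.45), 2 (-2.87) or 7 (-2.59), Prim2, without embryo 1 (-1.53) or 3 (-1.68), and Gins2, without embryo 1 (-1.46). Without embryo 3, Rpa2 stood at -6.98, Cdc6 at -5.34 and Rpa3 at -3.50, and without embryo 1 Pole2 stood at -3.09, each more than 1.5 times its value with all 4 embryos. The difference between crosses did not pass for Gins2 without embryo 1 (-1.42) or 2 (-1.47), nor for Fen1 without embryo 1 (-1.87), 2 (-1.68) or 7 (-2.22). For Pole2, the second subunit of polymerase epsilon, that value rests on embryos 3 and 7, which had 0 and 0.998 CPM.

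Set against 1PN embryos, the uniparental ones gave a like picture with fewer calls. Of the 40 members 3 were higher and 9 lower (12.7% of all genes each, 25.3% in all), all 12 of them also called against 2PN embryos; both comparisons use the same uniparental embryos. Rpa2 stood at -2.36 ± 0.53 (SE, adjusted p = 0.00068) and Orc5 at 2.15 ± 0.42 (adjusted p = 0.00013), each beyond the 1PN median of its cross in 12 of 12. Rpa1 (1.11) and Rfc5 (1.00) were also higher, and Gins3 (-1.70), Cdc45 (-1.47), Cdc6 (-1.42), Gins1 (-1.40), Gmnn (-1.23), Prim1 (-1.12), Gins4 (-0.97) and Mcm7 (-0.81) also lower. In JF1/Ms x C57BL/6 the 3 1PN embryos had 347, 692 and 545 CPM of Rpa2, 542, 606 and 482 CPM of Cdc45 and 900.3, 756 and 685 CPM of Gmnn. All lay above each of the 4 uniparental embryos of the cross. Without the 3 embryos that stood apart 1 member was higher and 4 lower (6.19% and 7.59% of all genes), namely Orc5 at 1.44, Cdc6 at -1.10, Cdc45 at -1.10, Gins4 at -1.33 and Rpa2 at -2.07. In JF1/Ms x C57BL/6 single embryos decided some calls: Gins3 did not pass without any 1 of the 3 1PN embryos or of uniparental embryos 1, 2 and 7 (-1.68 to -1.56), nor did Gins1 (-1.26) and Rpa1 (1.00) without embryo 2 and Mcm7 (-0.73) without embryo 7.

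Between 1PN embryos not called parthenogenetic and 2PN embryos, a difference in the replication genes was not detectable at this depth. The comparison called 0 members higher and 0 lower (edgeR), where 0.228% of all genes were higher and 0.0351% lower, 0.263% in all, and 0 of the 40 reached an unadjusted p under 0.05. The log2 fold changes ran from -0.58 (Rfc2) to 0.61 (Lig1). Orc5 had the smallest unadjusted p, with 26.2, 34.7 and 75.2 CPM in 1PN embryos of JF1/Ms x C57BL/6, against a median of 41.3 CPM in 2PN embryos, and 13.5 to 89.4 CPM (median 45.4) in those of C57BL/6 x JF1/Ms, against a median of 58.2 CPM. That is a change of -0.51 ± 0.32 (SE, adjusted p = 1). Within a cross 0 members passed as well. In C57BL/6 x JF1/Ms, where 0.582% of all genes were higher and 0.0246% lower, Lig1 came nearest at 0.96 ± 0.48 (adjusted p = 0.72), with 0.332 to 78.0 CPM (median 5.62) in 11 1PN embryos, against 0 to 47.1 CPM (median 4.96) in 2PN embryos. In JF1/Ms x C57BL/6, where 0.0205% were higher and 0.0164% lower (0.0369% in all), it was Orc3, at 2.35, 1.25 and 1.36 CPM in the 3 1PN embryos, against 0 to 31.98 CPM (median 2.86) in 2PN embryos, a change of -2.17 ± 0.99 (adjusted p = 0.41). The difference of the 1PN effect between the crosses passed in 0 members (0.0164% of all genes higher and 0.0041% lower), with an unadjusted p under 0.05 for 2 of them.

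Parthenotes of C57BL/6 were set against 2PN embryos of C57BL/6 x JF1/Ms, against which the uniparental 1PN embryos were set as well. Parthenotes held less of 9 of 12 helicase genes. Of the 40 members 4 were higher and 19 lower (24.8% and 19.6% of 24380 genes, 44.4% in all), with a median of -0.46 against 0.19 over all genes. Scaled by DESeq2 size factors 8 were higher and 15 lower (32.1% and 15.7% of all genes), and Gmnn, Mcm5, Mcm10 and Rfc4 no longer passed. In the helicase 0 of 12 were higher and 9 lower, with a median of -0.75. Gins4, the member with the smallest p, had 44.6 to 149 CPM (median 80.7) in 31 parthenotes, against 57.4 to 282 CPM (median 160.4) in 43 2PN embryos, and 31 of 31 lay below the 2PN median. It fell by 1.21 ± 0.15 (SE, adjusted p = 1.8e-11). Mcm6 stood at -1.04 ± 0.17 (adjusted p = 8e-08, 30 of 31 below) and Gins1 at -1.24 ± 0.27 (adjusted p = 8.3e-05, 30 of 31 below). Gins3 (-1.62), Mcm5 (-0.92), Mcm2 (-0.78), Cdc45 (-0.73), Mcm10 (-0.69) and Mcm7 (-0.59) were lower too. Mcm3, Mcm4 and Gins2 did not pass. In licensing Cdc6 fell by 1.56 ± 0.23 (adjusted p = 9.1e-09) to 12.5 to 82.9 CPM (median 31.7), against 41.4 to 180.5 CPM (median 79.8). Cdt1 stood at -1.29 ± 0.22 (adjusted p = 8.8e-07, 30 of 31 below), Orc2 at -0.49 ± 0.12 (adjusted p = 0.00048) and Gmnn at -0.43 ± 0.18 (adjusted p = 0.044), the last not without embryo 9 of the 1PN group in the shared fit (-0.34). Orc3 was higher at 0.90 ± 0.30 (adjusted p = 0.0094), and Orc1, Orc4, Orc5 and Orc6 did not pass, Orc5 at 0.27 ± 0.22.

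Of the fork factors 3 were higher and 6 lower in parthenotes. Rpa2 again had the most negative change, at -2.05 ± 0.31 (SE, adjusted p = 1.8e-08), with 10.8 to 273.9 CPM (median 83.2) in parthenotes, against 75.7 to 744 CPM (median 340.0) in 2PN embryos. Its 31 values all lay below the 2PN median. Rpa3 was above the 2PN median in 30 of 31, at 9.99 to 112 CPM (median 71.6), against 4.75 to 66.0 CPM (median 24.01), a change of 1.04 ± 0.22 (adjusted p = 3.1e-05). Rpa1 (0.56 ± 0.23, adjusted p = 0.041) and Lig1 (0.95 ± 0.35, adjusted p = 0.02) were higher too. Pold3, an accessory subunit of polymerase delta, had 18.6 to 162 CPM (median 64.0) in parthenotes, against 47.2 to 284 CPM (median 132) in 2PN embryos, and fell by 1.20 ± 0.15 (adjusted p = 1.2e-10). Rfc1, the large subunit of the clamp loader, was lower at -0.75 ± 0.12 (adjusted p = 2.5e-07). Prim1, the flap endonuclease Fen1 and Rfc4 were lower as well, at -0.97, -1.11 and -0.77, and the other 10 fork factors did not pass. Rfc4 is among the members most limited by low counts. The oocyte-derived list had a median sum of 4813 CPM in parthenotes, against 3337 CPM in 2PN embryos, and 3 of the 20 listed genes were higher and 2 lower (24.8% and 19.6% of all genes).

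Uniparental 1PN embryos of C57BL/6 x JF1/Ms and parthenotes, both without a paternal genome, differed in 1 member. Pold3 had 101 to 221 CPM (median 125.9) in the 8 uniparental embryos, against 18.6 to 162 CPM (median 64.0) in 31 parthenotes, and 8 of 8 lay above the parthenote median. It was higher by 1.04 ± 0.24 (SE, adjusted p = 0.0045), while 1.33% of all genes were higher and 0.541% lower, 1.87% in all. In 2PN embryos of that cross it had a median of 132 CPM. For 6 of the 40 the unadjusted p was under 0.05, and with 8 embryos a missed threshold does not show that the levels were alike. Without the 3 embryos that stood apart 1 member was again higher and 0 lower (1.07% and 0.184% of all genes), Pold3 at 0.89.

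**Figure D2:**
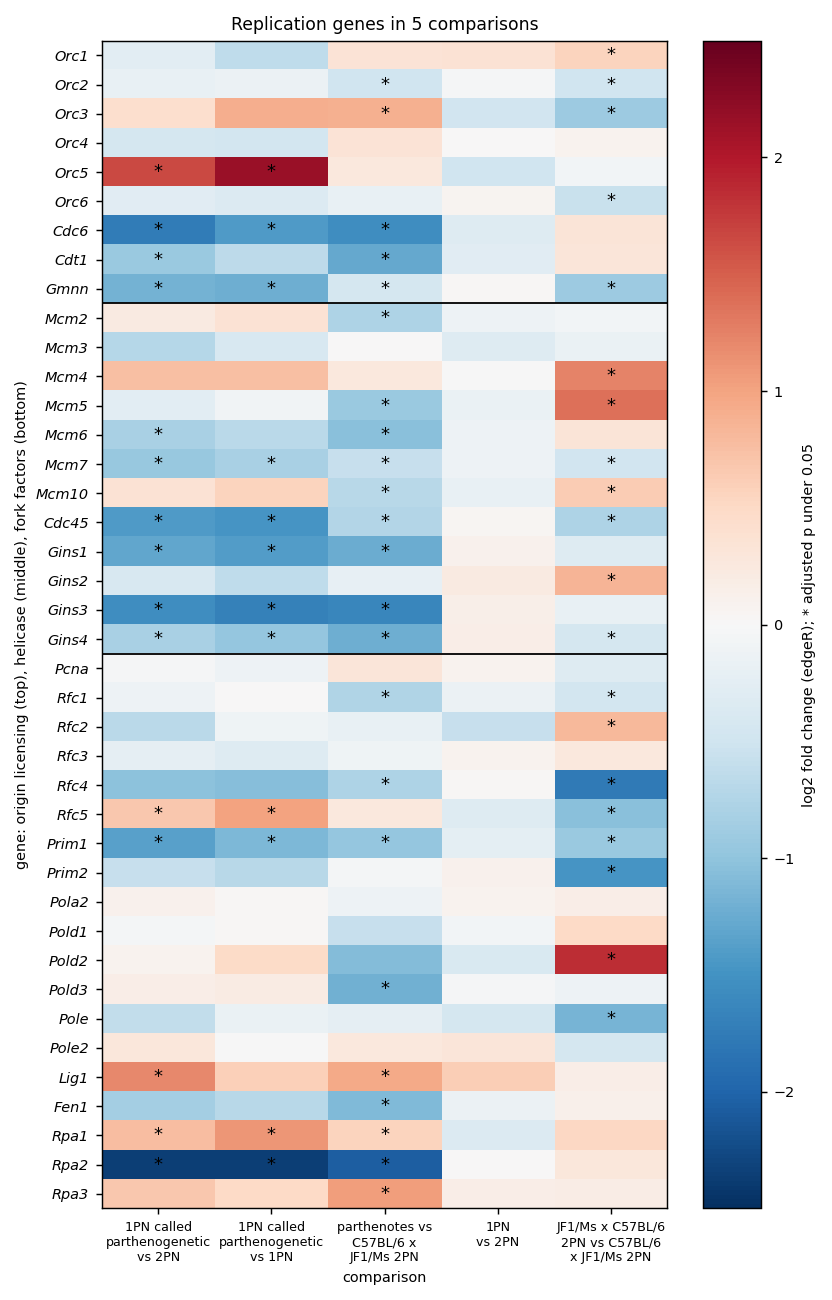
Colours give the log2 fold change of each of the 40 genes (rows, by class) in 5 comparisons (columns), the first-named group over the other, and asterisks mark an adjusted p under 0.05. The 1PN against 2PN column has 0 asterisks, and helicase genes are mostly blue in the columns of uniparental embryos and of parthenotes.

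The reciprocal crosses differed in 20 of the 40 members without sharing a direction. In 2PN embryos of JF1/Ms x C57BL/6, against those of C57BL/6 x JF1/Ms, 7 were higher and 13 lower (19.1% and 21.1% of 24380 genes, 40.2% in all), and the median was -0.06 both for the members and for all genes. The share called is near that of all genes. The subunits of single complexes went both ways. In the Mcm ring, Mcm4 had 17.4 to 206 CPM (median 71.1) in 21 embryos of JF1/Ms x C57BL/6, against 1.64 to 162 CPM (median 23.9) in 43 of C57BL/6 x JF1/Ms, a change of 1.24 ± 0.27 (SE, adjusted p = 7.4e-05, 19 of 21 above the median). Mcm5 was higher by 1.38 ± 0.35 (adjusted p = 0.0009), while Mcm7 stood at -0.47 ± 0.18 (adjusted p = 0.027). In the clamp loader, Rfc2 was higher at 0.82 ± 0.28 (adjusted p = 0.013). Rfc5 fell to 4.55 to 73.5 CPM (median 19.9), against 6.45 to 110.9 CPM (median 51.1), by 1.05 ± 0.20 (adjusted p = 1.1e-05), and Rfc4 by 1.78 ± 0.35 (adjusted p = 2e-05, 20 of 21 below the median). Rfc4 was at low counts, with 0 to 16.7 CPM in the 21 embryos of JF1/Ms x C57BL/6. Both primase genes were lower, Prim1 at -0.92 ± 0.22 (adjusted p = 0.00034) and Prim2 at -1.47 ± 0.31 (adjusted p = 4.7e-05). Pold2, a small subunit of polymerase delta, had the most positive change at 1.85 ± 0.51 (adjusted p = 0.002), but at low counts: 0 to 88.8 CPM (median 11.5), against 0 to 21.7 CPM (median 3.92). Gins2 (0.85), Mcm10 (0.64) and Orc1 (0.55) were higher as well, and Pole (-1.17), Gmnn (-0.90), Orc3 (-0.90), Cdc45 (-0.77), Orc6 (-0.55), Orc2 (-0.50), Rfc1 (-0.47) and Gins4 (-0.45) were lower. The JF1/Ms x C57BL/6 embryos were shallower, and depth was not tested as the source.

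**Figure D3:**
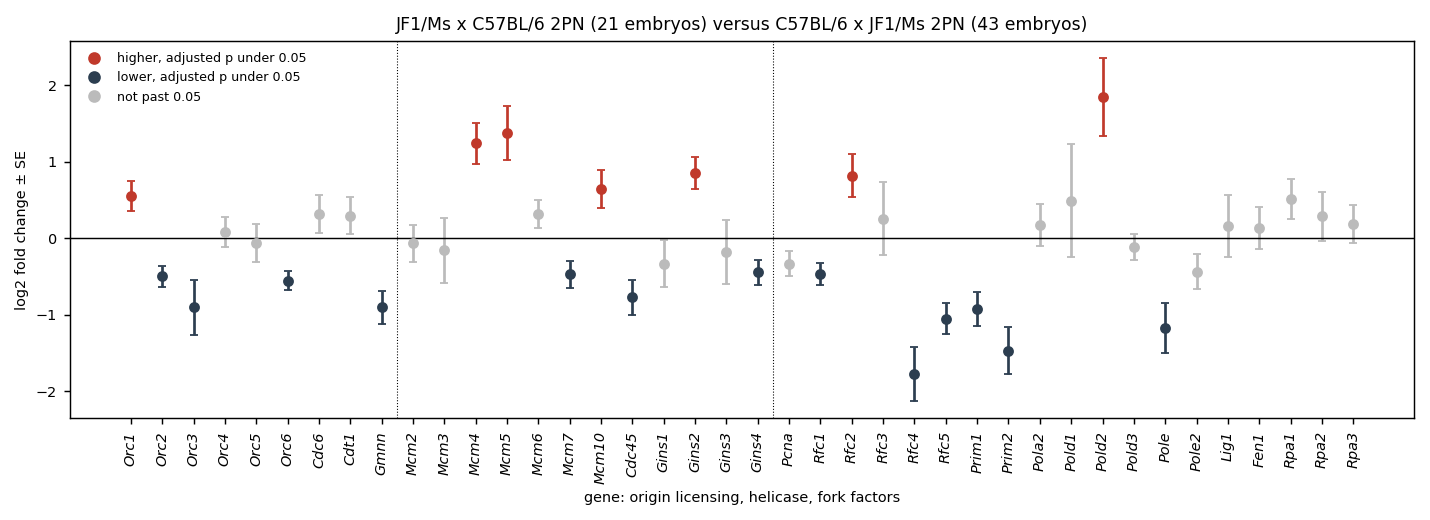
Points give the log2 fold change of each gene in 2PN embryos of JF1/Ms x C57BL/6 over those of C57BL/6 x JF1/Ms, and bars 1 SE of the edgeR fit; genes run from licensing at the left to fork factors at the right. The 7 red genes and the 13 dark ones are interleaved, as for Mcm5 at 1.38 and Mcm7 at -0.47.

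The 2PN embryos of JF1/Ms x C57BL/6 were not uniform. Embryos 3, 6, 8, 10 and 21 held 46.3 to 57.4 CPM of Cdc45, while the other 16 held 116.9 to 606 CPM. The same 5 were below each of the 16 in Gmnn, with 14.3 to 140.4 CPM against 219.6 to 1132 CPM. They were also below them in Rpa2, with 0 to 96.4 CPM against 150.8 to 1097 CPM, and in Mcm6, with 41.1 to 101 CPM against 144 to 313 CPM. The other 36 members overlapped between the 5 and the 16. The share of all genes that set the 5 apart in this way was not counted. The 4 uniparental 1PN embryos of the cross had 0 to 51.9 CPM of Cdc45, next to these 5. Summed oocyte-derived transcripts were 3369 to 9533 CPM (median 4865) in the 5 and 833 to 6902 CPM (median 1927) in the 16, and total counts 533116 to 3784871 and 962497 to 3925201. The 5 were picked by their Cdc45 level after it was seen, so this is a description. Without them 7 members were higher and 9 lower between the reciprocal 2PN groups (13.1% and 21.9% of all genes), and Cdc45, Mcm7, Gins4, Rfc1, Rfc2 and Pold2 no longer passed. Against the remaining 16, uniparental 1PN embryos of the cross had 2 members higher and 21 lower (17.4% and 23.6% of all genes). Dropping the 5 by itself raises the 2PN group in Cdc45, Gmnn, Rpa2 and Mcm6. The calls of these genes without the 5 are therefore partly fixed by the pick.

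**Figure D4:**
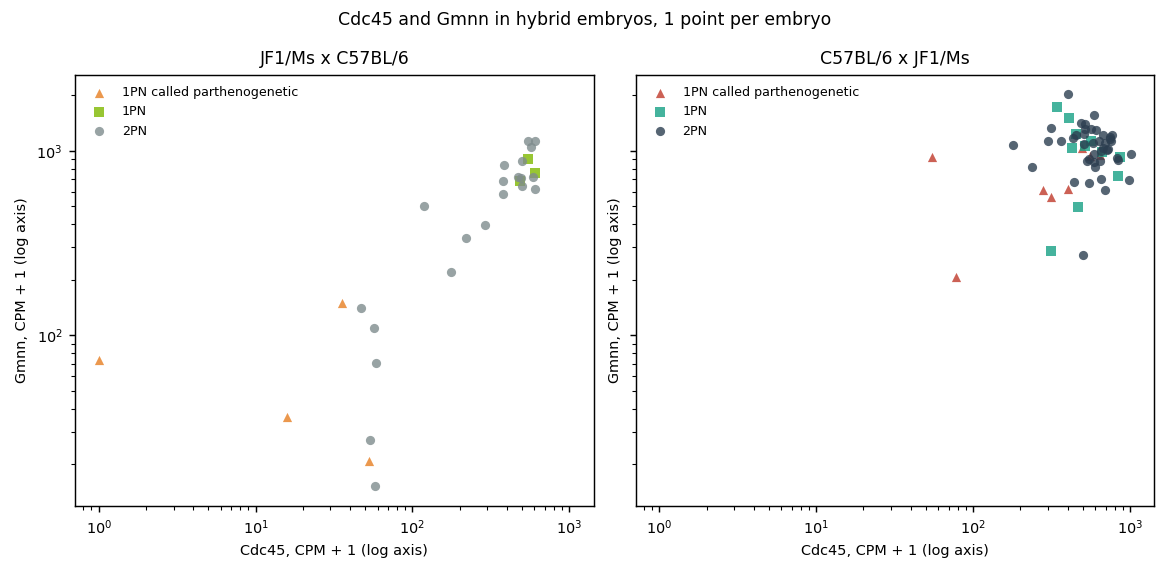
Each point is 1 embryo, with Cdc45 on the horizontal and Gmnn on the vertical axis, both as CPM + 1 on log scales, in a panel for each cross. In JF1/Ms x C57BL/6 the 5 2PN embryos at 46.3 to 57.4 CPM of Cdc45 lie next to the uniparental 1PN embryos, and in C57BL/6 x JF1/Ms the 2PN embryos start at 177 CPM.

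Embryos of 1 group also differed along the amount of inherited RNA. Members related by both coefficients (adjusted p under 0.05) are counted here. Each member was set against the summed oocyte-derived list, on log2(CPM + 1), across the 43 2PN embryos of C57BL/6 x JF1/Ms and across the 31 parthenotes, 80 relations in all with permutation p-values adjusted over them. The sums share their library and its depth with the members. The share of all genes related to this sum was not counted, so the counts describe the members and show no trait particular to them. In 2PN embryos 12 members were positively and 2 negatively related. Orc5 had the closest relation (Pearson's r = 0.829, Spearman's rho = 0.811, permutation p = 1e-05 for each, adjusted p = 0.00011 and 0.00016), then Rfc5 (r = 0.738, rho = 0.755), Mcm4 (r = 0.674, rho = 0.643) and Rpa3 (r = 0.618, rho = 0.536). The p of 1e-05 is the smallest the 100000 resamples can give. Rpa2 (r = -0.609, rho = -0.563, permutation p = 2e-05 and 1e-04) and Cdc45 (r = -0.461, rho = -0.520, permutation p = 0.0018 and 0.00055) ran the other way. In parthenotes Orc5 (r = 0.734, rho = 0.732) and Rfc5 (r = 0.557, rho = 0.570) were positive again, and Gmnn (r = -0.718, rho = -0.643), Cdc45 (r = -0.714, rho = -0.763), Cdc6 (r = -0.472, rho = -0.621) and Cdt1 (r = -0.494, rho = -0.454) were negative. Without the 2 embryos farthest from the median sum r of Orc5 was 0.799 in 2PN embryos and 0.695 in parthenotes, and that of Rpa2 was -0.536. The 2PN embryos stand in 2 blocks of records, embryos 1 to 29 and 30 to 43, and within them r was 0.827 and 0.865 for Orc5, -0.701 and -0.444 for Rpa2 and -0.735 and -0.191 for Cdc45. For Rpa1, with r = 0.522 over all 43, it was 0.660 and 0.0699. Of the 14 relations in 2PN embryos 0 turned their sign in either block. Without the 2 farthest embryos 0 of these 14 and of the 6 in parthenotes turned, and the smallest size left was 0.301 in 2PN embryos (Cdc45) and 0.247 in parthenotes (Cdt1). Of the 12 members positively related in 2PN embryos, 4 were higher in uniparental 1PN embryos (Orc5, Rfc5, Lig1 and Rpa1) and 8 were not called (Mcm2, Mcm4, Mcm5, Pcna, Rfc3, Pold2, Fen1 and Rpa3). The 2 negatively related there, Cdc45 and Rpa2, were both lower in uniparental 1PN embryos. Of the 26 members not related there, 9 were lower in uniparental 1PN embryos, among them Cdc6, Gmnn and Prim1, and 17 were not called. For the relations in parthenotes, the 2 positive members (Orc5 and Rfc5) were higher in uniparental 1PN embryos. The 4 negative ones (Cdc6, Cdt1, Gmnn and Cdc45) were lower. Of the 34 not related in parthenotes, 2 were higher, 7 lower and 25 not called.

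**Figure D5:**
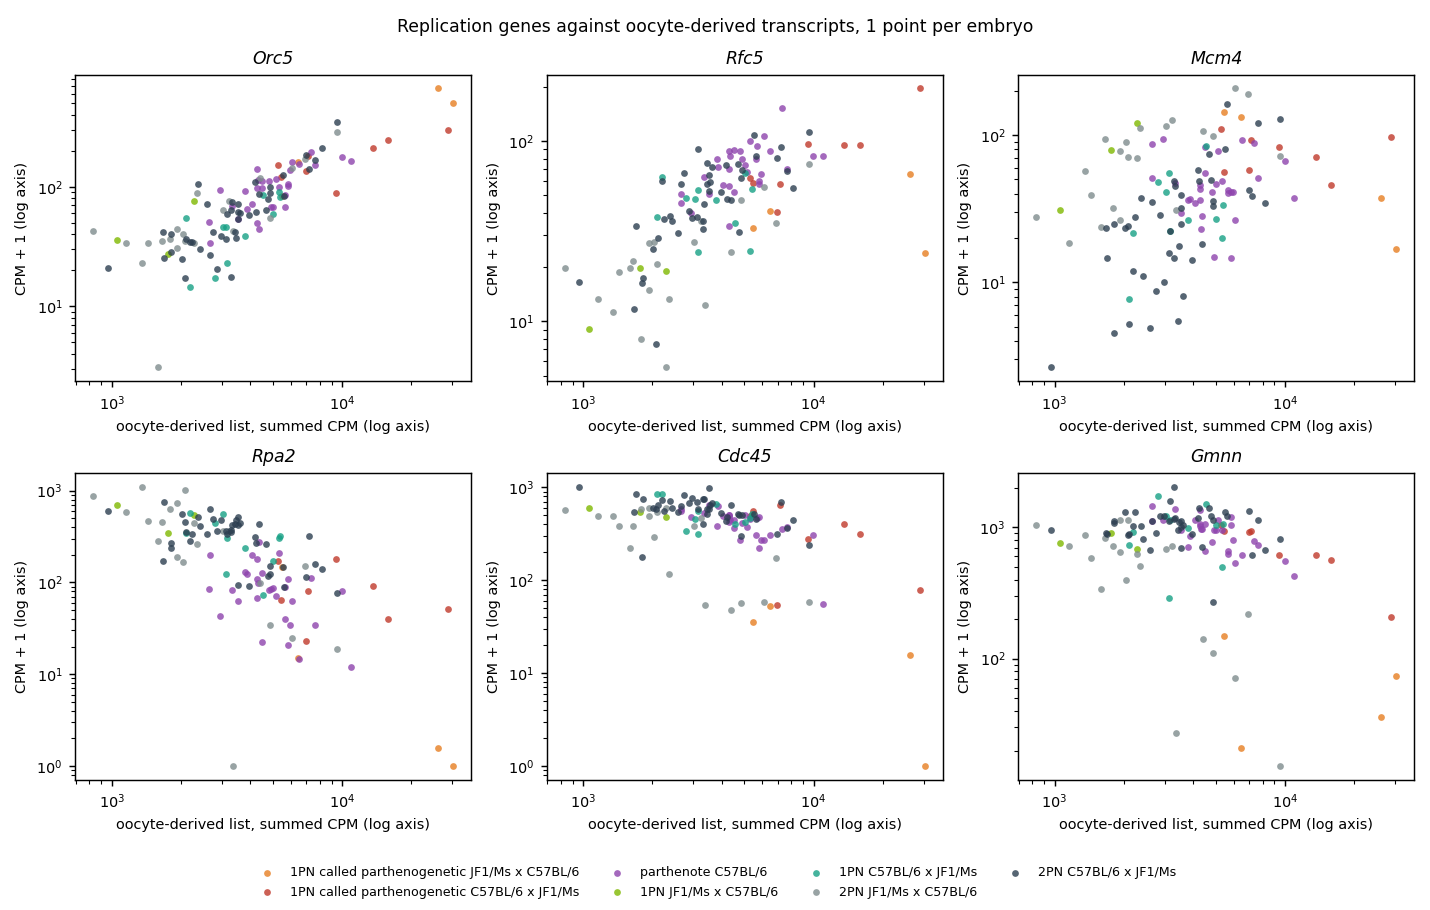
Each point is 1 embryo; the horizontal axes give the summed CPM of 20 oocyte-derived transcripts and the vertical axes CPM + 1 of 6 genes, all on log scales, coloured by group. Orc5 and Rfc5 climb and Rpa2 and Cdc45 decline along the horizontal axis, and the 3 embryos at 26090 to 30430 CPM lie at its right end.

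Other genes around the fork, listed from textbook roles with earlier results of these data known, gave a mixed picture in the same tests. Against 2PN embryos, uniparental 1PN embryos had 17 of 69 such genes higher and 13 lower, with a median of 0.07, where 18.3% and 15.8% of all genes were, with a median of 0.19. Of genes that fire or restrain origins 3 of 17 were higher and 4 lower. Dbf4, the activator of the Cdc7 kinase, was higher at 0.80 ± 0.13 (SE, adjusted p = 1.8e-06), and cyclin E1 (Ccne1) and Topbp1 were lower at -1.12 ± 0.24 (adjusted p = 0.00016) and -0.77 ± 0.16 (adjusted p = 0.00016). Of other fork and chromatin assembly genes 3 of 23 were higher and 4 lower, among them topoisomerase II alpha (Top2a) at -1.60 ± 0.25 (adjusted p = 6e-07) and the histone chaperone Asf1a at 1.00 ± 0.24 (adjusted p = 0.00061). Of genes of nucleotide supply 3 of 10 were higher and 1 lower, with the ribonucleotide reductase subunits split: Rrm2b at 1.90 ± 0.24 (adjusted p = 4e-09) and Rrm1 at -1.35 ± 0.45 (adjusted p = 0.015). Checkpoint and E2F genes had 8 of 19 higher and 4 lower, with the kinase Chek1 at 1.79 ± 0.22 (adjusted p = 1.2e-09), E2f4 at 1.45 ± 0.27 (adjusted p = 1.7e-05) and Rad17, which loads a checkpoint clamp, at -0.91 ± 0.16 (adjusted p = 8.3e-06). Parthenotes had 18 of the 69 higher and 21 lower, where 24.8% and 19.6% of all genes were. In them Asf1a stood at 1.76 ± 0.17 (adjusted p = 9.2e-17), Dbf4 at 0.58 ± 0.09 (adjusted p = 6.5e-08), Top2a at -1.33 ± 0.16 (adjusted p = 6.6e-12), Topbp1 at -0.98 ± 0.12 (adjusted p = 1.1e-11) and Chaf1a, of the histone loader that binds Pcna, at -1.50 ± 0.16 (adjusted p = 1.6e-13). Of the 69, 0 passed between 1PN and 2PN embryos, and 1 had an unadjusted p under 0.05.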

How the data were processed

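Single mouse 2-cell embryos had been made into SMART-Seq v4 and Nextera XT libraries, per the labels' protocols. The submitters' processing notes name HISAT2 2.0.5, featureCounts 2.0.0 and the build GRCm38, without saying what each step did. The deposited table holds estimated counts for 43421 genes in 125 libraries, made by the authors without stated scaling; 28.4% of its nonzero values were not whole, and all were rounded to whole numbers here. Gene IDs were given symbols from a RefSeq-based name table (43266 matched). Groups were taken from the labels, and 4 libraries labelled dead or of low quality entered no comparison.

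Counts were tested with edgeR 4.0.16 (quasi-likelihood, TMM factors, filterByExpr by group) in R 4.3.3, with Benjamini-Hochberg adjustment over all genes tested and a threshold of 0.05. Hybrid groups were fitted by type with cross as a term (22785 genes), and all 7 groups by group means (24380 genes). SE was taken as the size of the log2 fold change over the square root of F. The procedure was tested on simulated data, where false calls were frequent below 10 CPM and rare above. Alternatives were DESeq2 1.42.0, limma voom 3.58.1, size factors, no filter, a replicate block and libraries left out. Correlations used log2(CPM + 1) and 100000 permutations (scipy 1.17.1). The members and lists were chosen with earlier results of these data known; in each class members past the threshold are named, up to 3 per direction in full.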

Additional observations from a re-analysis of the deposited data

Results flagged for a closer look

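Of 79 sets of values examined for a single embryo far from the rest of its group, 8 had one, where chance gives about 1 in 20. Embryo 10 was the lowest of the 8 uniparental 1PN embryos of C57BL/6 x JF1/Ms in 5 genes: Orc4 with 91.7 CPM, Gmnn with 205.6 CPM, Mcm7 with 20.7 CPM, Gins3 with 0 CPM and Pcna with 123.6 CPM. The next lowest embryos had 238 CPM of Orc4, 557.9 CPM of Gmnn, 89.0 CPM of Mcm7, 11.3 CPM of Gins3 and 224 CPM of Pcna. It is also the embryo of the cross with 28910 CPM of oocyte-derived transcripts, and the part of these in the low values was not tested. Among the 4 uniparental 1PN embryos of JF1/Ms x C57BL/6, embryo 7 was the lowest in Orc2 with 51.9 CPM and in Gins4 with 0.998 CPM, while the other 3 had at least 150.5 and 75.1 CPM. Embryo 3 was the highest in Rfc4, with 4.57 CPM while the others had at most 0.284 CPM.

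Of 80 tests of a difference between crosses, 11 passed, all for the uniparental effect, which was more negative in JF1/Ms x C57BL/6 than in C57BL/6 x JF1/Ms. The differences in log2 fold change were -2.56 for Orc1, -2.78 for Cdt1, -2.41 for Gmnn, -1.79 for Mcm7, -3.01 for Cdc45, -1.61 for Gins2, -3.14 for Rfc2, -2.32 for Prim1, -2.75 for Pole2, -2.09 for Fen1 and -3.46 for Rpa3. They rest on 4 embryos on one side and 8 on the other.

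The libraries left out held replication transcripts above and below the range of the 43 2PN embryos of C57BL/6 x JF1/Ms. The share of all genes outside that range was not counted, so the counts show nothing particular to the members. The library labelled dead had 13258 genes with a count, against a median of 19516 in these 2PN embryos. In the 1PN embryo labelled dead 4 members were above each of these 2PN embryos: Orc5 with 530.2 CPM, Orc6 with 1224 CPM, Rfc1 with 312 CPM and Pold3 with 329 CPM. In the same embryo 17 members were below each of them, among them Mcm6 and Mcm7 with 0 CPM, Rpa2 with 0.282 CPM, Cdc45 with 52.4 CPM and Gmnn with 64.5 CPM, where the lowest 2PN values were 75.7 CPM for Rpa2, 177 CPM for Cdc45 and 270.9 CPM for Gmnn. In low-quality 1PN embryo 6 there were 3 above, Orc5 with 399 CPM, Rfc5 with 276 CPM and Pold2 with 40.3 CPM, and 11 members were below the range. In low-quality embryo 8 there were 2 above, Orc1 with 275 CPM and Gins2 with 51.0 CPM, and 3 below. The highest 2PN values were 345 CPM for Orc5, 1144 CPM for Orc6, 265 CPM for Rfc1, 284 CPM for Pold3, 110.9 CPM for Rfc5, 21.7 CPM for Pold2, 259 CPM for Orc1 and 35.5 CPM for Gins2.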

How the results depend on the processing

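Over 19 alternatives, 1894 of 2071 values of called members kept direction and call, 177 lost the call and 0 turned sign. The losses were uneven. Of 109 values, 36 lost the call without the 3 uniparental embryos that stood apart and 35 with the replicate block. Without uniparental embryos 1 and 2 of JF1/Ms x C57BL/6 it was 32. Fits without 1 embryo were also scored on comparisons that do not hold it, so the pooled count overstates how stable the calls were. Between 1PN and 2PN embryos 0 members passed under any of them. The counts that follow are of members only, and the share of all genes called under each setting is not given beside them. A changed count can therefore not be read as particular to the members. Without the 3 uniparental embryos rich in oocyte-derived transcripts, a choice made after seeing the data, uniparental against 2PN embryos gave 2 higher, against 1PN embryos 1 higher and 4 lower, within JF1/Ms x C57BL/6 0 higher and 8 lower, and the difference between crosses 3 lower. When uniparental embryos 1 and 2 were dropped, JF1/Ms x C57BL/6 gave 0 higher and 7 lower and the difference 1 lower. Parthenotes and uniparental embryos of C57BL/6 x JF1/Ms then each gave 7 higher. In both of these settings only uniparental embryos 3 and 7 of JF1/Ms x C57BL/6 remained. Without the 5 2PN embryos low in Cdc45, also chosen afterwards, JF1/Ms x C57BL/6 gave 2 higher, the difference 2 higher and C57BL/6 x JF1/Ms 8 lower. That choice by itself raises the 2PN level of Cdc45 in JF1/Ms x C57BL/6. Leaving out each 1PN and uniparental embryo of JF1/Ms x C57BL/6 in turn gave 3 to 4 higher and 10 to 11 lower against 2PN embryos, 2 to 3 and 7 to 9 against 1PN embryos, 1 to 2 and 15 to 20 within JF1/Ms x C57BL/6, 4 to 6 and 5 within C57BL/6 x JF1/Ms, 0 to 2 and 9 to 15 for the difference, and 4 to 6 and 19 for parthenotes.

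With DESeq2, parthenotes had 9 members higher, uniparental embryos of C57BL/6 x JF1/Ms 7 and of JF1/Ms x C57BL/6 3, and the difference 1 higher; size factors gave 8, 7 and 3. Fits of only the groups compared gave parthenotes 9 higher, uniparental embryos against parthenotes 2 higher and 1 lower, and 9 lower within each cross. Under limma voom C57BL/6 x JF1/Ms had 9 lower and JF1/Ms x C57BL/6 2 higher. The other weighting of small counts in edgeR, added later, gave 7 higher and 10 lower in C57BL/6 x JF1/Ms and 2 higher against parthenotes. Without 1PN embryo 9 parthenotes had 7 higher.

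Numbers in the titles did not pair the embryos: same-numbered embryos had median correlations of -0.097 to 0.067, and at most 2 matched their own number best. With the replicate block, uniparental embryos had 1 higher and 7 lower against 2PN embryos and 1 higher against 1PN embryos, 2 and 2 within C57BL/6 x JF1/Ms, the difference 7 lower and the reciprocal 2PN embryos 4 higher. The cause of these shifts was not tested. Low counts limit Pold1, Pold2 and Rfc4 most.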

Other observations

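Between the reciprocal 2PN groups, the other genes around the fork were called in both directions: 21 of 69 were higher and 10 lower in JF1/Ms x C57BL/6, against C57BL/6 x JF1/Ms, by edgeR with Benjamini-Hochberg adjustment, where 19.1% of all genes were higher and 21.1% lower. The counts by list are small and are given as a description. Of the genes of initiation 6 of 17 were higher and 1 lower, with Donson, a replisome factor, at 1.04 ± 0.15 (SE, adjusted p = 1.9e-08), the kinase Cdk2 at 0.94 ± 0.19 (adjusted p = 2.3e-05) and Topbp1 at -0.96 ± 0.14 (adjusted p = 5.1e-09). Of nucleotide supply 4 of 10 were higher and 2 lower. The ribonucleotide reductase subunit Rrm2 stood at 1.37 ± 0.19 (adjusted p = 9.2e-10), and the dUTPase Dut at -1.37 ± 0.26 (adjusted p = 9.6e-06). Checkpoint and E2F genes had 7 of 19 higher and 4 lower, among them E2f1 at 1.30 ± 0.20 (adjusted p = 3.7e-08), the ATR partner Atrip at 1.94 ± 0.30 (adjusted p = 3.8e-08) and the clamp subunit Hus1 at -1.85 ± 0.33 (adjusted p = 2.3e-06). Other fork genes had 4 of 23 higher and 3 lower, with the histone chaperones Asf1a at 0.95 ± 0.18 (adjusted p = 1.2e-05) and Asf1b at -1.07 ± 0.17 (adjusted p = 1.5e-07).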
